A study of Mus musculus with 12 samples.

Results

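Cdkn1a, Mdm2, Ccng1, Zmat3, Phlda3, Sesn1, Sesn2, Btg2, Gadd45a and Plk2 are direct targets of the transcription factor p53 whose products arrest the cell cycle, restrain growth signalling or act back on p53 itself. The 10 genes were taken by name, and every probe set annotated to 1 of them alone was used, which gave 18 of the 20380 single-gene probe sets and 10 of 12393 genes. The tumours came from C26 cells, a colon carcinoma line of the mouse, placed under the skin of Balb/c mice aged 6 weeks. Treatment followed on day 8, at a tumour size of about 50 mm3. The mice received CP-Dox, which is doxorubicin attached to a chimeric polypeptide carrier, or free doxorubicin (Dox), or phosphate-buffered saline (PBS). Tumours were collected 48 h later, with 4 mice per group and 1 array per tumour. Effects of the carrier and of the bound drug cannot be told apart, since the carrier was not given by itself. Doses are not given in the sources used here.

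Doxorubicin intercalates into DNA and traps topoisomerase II on broken strands. Such breaks activate kinases that stabilize p53, and p53 then switches on genes that stop the cell cycle, genes that repair or kill the cell, and genes such as Mdm2 that remove p53 again. Because Mdm2 both responds to p53 and destroys it, p53 and its targets can rise and fall in pulses after damage.

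Signals are log2 values after robust multi-array averaging (RMA), on which a step of 1 means a 2-fold change. Differences are given ± the standard error of a limma fit over all 12 arrays, with n = 4 tumours per group. P values were adjusted by Benjamini and Hochberg over 12393 genes, and rose and fell are used for an adjusted p under 0.05. The labels number the replicates as separate mice. Precision is limited by the number of arrays, and over all genes the median standard error was 0.13. One CP-Dox tumour, replicate 2, correlated with the rest of its group at a mean of 0.948, against 0.971 to 0.977 for the other CP-Dox tumours and 0.981 to 0.99 within the Dox and PBS groups. Markers of the labelled tissue were uneven. The simple epithelial keratin Krt8 averaged 10.35 over the 12 arrays, whereas the intestinal genes Cdx1 and Vil1 averaged 4.25 and 4.42, among the dimmest signals. In whole tumours, fewer cells of a type and less RNA per cell cannot be told apart.

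To show what the start sites of the 10 genes hold, RefSeq windows of 300 bases (GRCm38.p6) were searched. They ran from 250 before to 50 after each annotated start. Both strands were searched for the p53 half-site consensus, a motif of 10 letters that reads as its own reverse complement. The table held windows for 9 of the 10 genes, all but Zmat3, and 11 windows in all. The half-site stood in 5 of the 11 windows, in Cdkn1a, Mdm2, Ccng1, Sesn1 and Gadd45a, whereas 8.36% of all 32851 windows held it. The genes were chosen as known p53 targets, and these shares carry no test. The bases before the start are printed for Cdkn1a, Ccng1 and Mdm2, with half-sites in capitals. These had the largest log2 differences of the 10 genes in CP-Dox against PBS.
Cdkn1a, chr17:29090729-29090978, plus strand: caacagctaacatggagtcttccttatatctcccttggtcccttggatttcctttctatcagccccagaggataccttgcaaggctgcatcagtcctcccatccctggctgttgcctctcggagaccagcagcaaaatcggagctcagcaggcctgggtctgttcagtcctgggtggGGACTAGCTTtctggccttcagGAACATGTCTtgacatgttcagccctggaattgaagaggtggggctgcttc
Ccng1, chr11:40755287-40755536, minus strand: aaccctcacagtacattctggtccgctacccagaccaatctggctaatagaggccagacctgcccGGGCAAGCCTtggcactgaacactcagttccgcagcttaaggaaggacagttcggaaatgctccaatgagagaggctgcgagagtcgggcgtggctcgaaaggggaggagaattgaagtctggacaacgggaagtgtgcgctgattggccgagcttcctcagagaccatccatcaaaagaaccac
Mdm2, chr10:117710759-117711008, minus strand: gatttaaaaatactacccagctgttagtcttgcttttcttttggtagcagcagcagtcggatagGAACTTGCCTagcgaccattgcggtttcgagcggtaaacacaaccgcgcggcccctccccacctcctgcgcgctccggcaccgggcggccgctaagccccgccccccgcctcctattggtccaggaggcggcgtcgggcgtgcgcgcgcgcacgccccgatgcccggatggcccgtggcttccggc
Of the 2 half-sites in the Cdkn1a stretch, 1 lies at -73 to -64 and the other at -51 to -42 from that annotated start. Another annotated start of Cdkn1a lies 2790 bases downstream, and its window held 0 half-sites. The half-site of Ccng1 lies at -185 to -176 and that of Mdm2 at -186 to -177. The windows of Gadd45a and of 1 annotated start of Sesn1 also held 1 each, at -40 to -31 and at -173 to -164. Both are shown with 10 bases on either side.
Gadd45a: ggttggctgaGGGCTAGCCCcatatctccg
Sesn1: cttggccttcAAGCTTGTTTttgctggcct
The windows of Phlda3, Sesn2, Btg2 and Plk2 did not hold these letters, nor did that of another Sesn1 start, at chr10:41810324-41810623. A match describes the sequence and is not a binding site, and the best-known p53 sites of Mdm2 lie outside its window, inside the gene.

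CP-Dox was set against PBS to ask which of these targets differed in tumours given the polypeptide-bound drug. The CDK inhibitor gene Cdkn1a, both feedback genes Mdm2 and Ccng1, the RNA-binding protein gene Zmat3, and the growth-signalling brakes Phlda3 and Sesn2 rose, by 1.74- to 3.30-fold. The remaining genes Sesn1, Gadd45a, Btg2 and Plk2 did not pass the test. Thus 6 of the 10 genes rose and 0 fell, where 2.35% of all genes rose and 3.23% fell. The median log2 difference of the 10 genes was 0.96, that of all genes -0.04. In the same 6 genes every CP-Dox tumour lay above every PBS tumour, which held for 4.31% of all genes. At an unadjusted p under 0.05 the number was 8 of the 10 genes, and 2914 of all 12393 genes (23.5%). Over all single-gene probe sets, 11 of the 18 rose, where 2.18% of all such probe sets did.

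**Figure D1:**
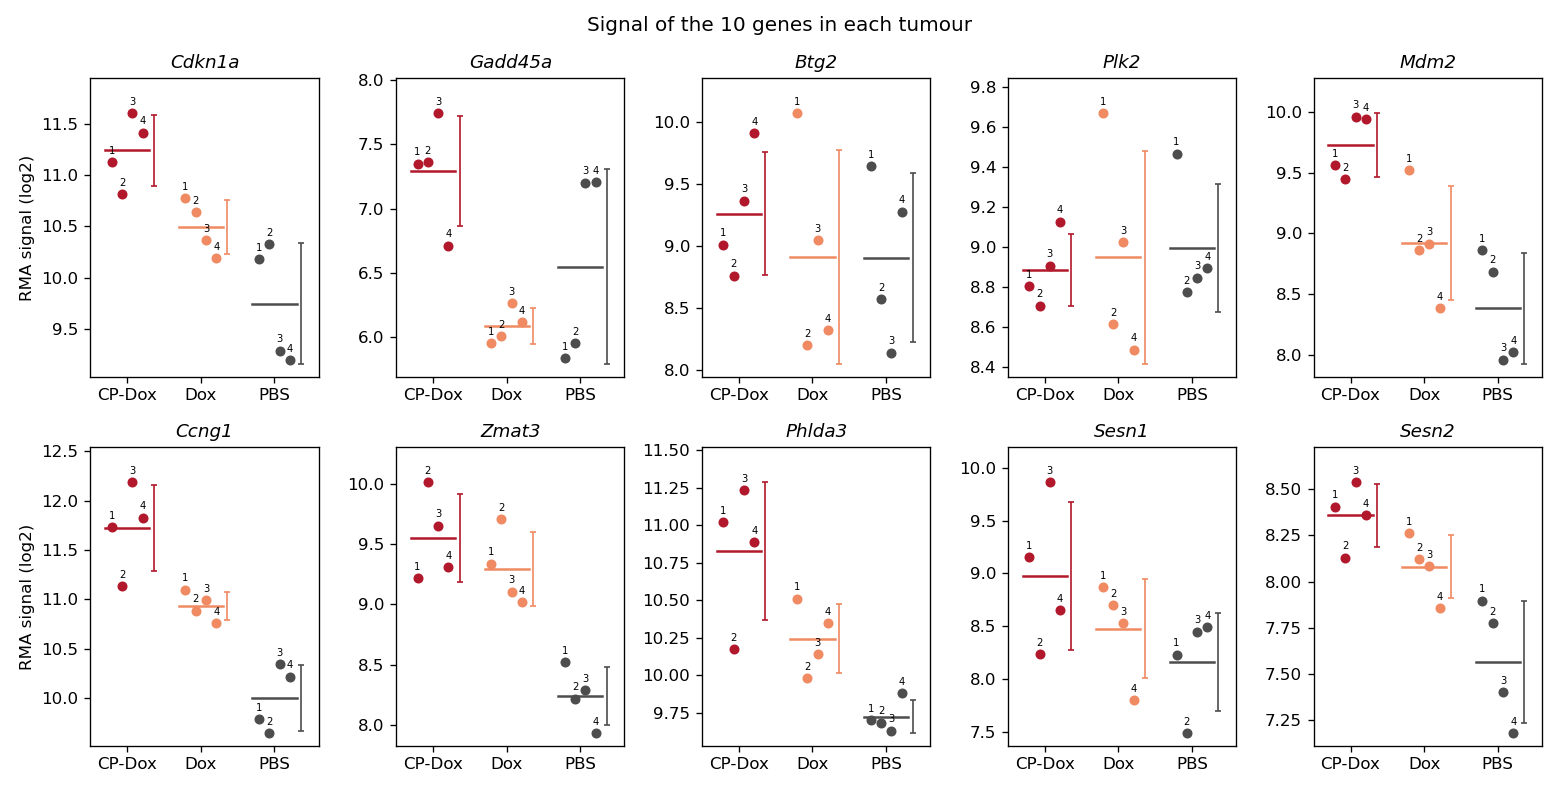
RMA log2 signal (y axis) of each of the 10 genes in the 12 tumours, with CP-Dox left of Dox and Dox left of PBS; points are tumours and bars are group means. The 4 CP-Dox tumours lie above all 4 PBS tumours for Cdkn1a, Mdm2, Ccng1, Zmat3, Phlda3 and Sesn2. For the other genes the CP-Dox and PBS tumours overlap.

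Among the genes of arrest, Cdkn1a encodes p21, which binds and blocks cyclin-dependent kinases. Its gene lies at chr17:29090979-29100722 on GRCm38.p6. The log2 signal of Cdkn1a was 11.13, 10.82, 11.61 and 11.42 in CP-Dox tumours, 10.78, 10.64, 10.37 and 10.19 in Dox tumours, and 10.18, 10.32, 9.28 and 9.19 in PBS tumours. All CP-Dox tumours were above all others, and PBS replicates 3 and 4 were the lowest. Cdkn1a rose by 1.5 ± 0.27 (2.83-fold, 95% confidence interval 0.91 to 2.09, adjusted p = 0.0109 by limma) in CP-Dox against PBS. A second probe set of Cdkn1a gave 1.72 ± 0.26 and correlated with it at r = 0.927 over the 12 arrays. There PBS replicates 2 and 4 were level, at 8.54 and 8.53, with replicate 3 lowest at 8.11 and replicate 1 highest at 9.25.

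Gadd45a, whose product binds PCNA and p21 and inhibits the mitotic kinase Cdk1, had another pattern. Its log2 signal was 7.35, 7.36, 7.74 and 6.71 in CP-Dox tumours, 5.95, 6.01, 6.27 and 6.12 in Dox tumours, and 5.84, 5.96, 7.20 and 7.21 in PBS tumours. The Dox tumours were uniformly low, and the PBS tumours fell into pairs, with replicates 3 and 4 high. The difference of 0.74 ± 0.32 between CP-Dox and PBS did not pass (adjusted p = 0.192 by limma). In the pair of PBS tumours with high Gadd45a, the mean of the 16 skeletal muscle markers, all measured, was high as well. It stood 3.34 and 1.64 above the PBS mean, against -2.44 and -2.54 in the other PBS tumours. The muscle list stood at -0.49, 0.59, 1.61 and 1.82 in the CP-Dox tumours, and at -2.45, 1.59, -2.44 and -2.39 in the Dox tumours. In Dox replicate 2, the Dox tumour with high muscle markers, Gadd45a was 6.01. With the muscle mean as a covariate, a setting added after seeing the data, Gadd45a differed between CP-Dox and PBS by 0.62 ± 0.28 (adjusted p = 0.205 by limma).

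Btg2 and Plk2 respond to growth factors as well as to p53. Btg2 encodes an antiproliferative partner of the mRNA deadenylase complex, and Plk2 a polo-like kinase of centriole duplication. The log2 signal of Btg2 was 9.01, 8.76, 9.37 and 9.91 in CP-Dox tumours, 10.07, 8.20, 9.05 and 8.32 in Dox tumours, and 9.64, 8.57, 8.14 and 9.28 in PBS tumours. That of Plk2 was 8.80, 8.71, 8.91 and 9.13 in CP-Dox tumours, 9.67, 8.61, 9.02 and 8.49 in Dox tumours, and 9.47, 8.77, 8.85 and 8.89 in PBS tumours. The groups overlapped fully for both genes, whose highest signals were those of Dox replicate 1. The differences between CP-Dox and PBS were 0.35 ± 0.44 for Btg2 (adjusted p = 0.642) and -0.11 ± 0.24 for Plk2 (adjusted p = 0.805, both by limma), with intervals of -0.60 to 1.31 and -0.63 to 0.42. The other probe set of Btg2 gave -0.04 ± 0.42, of opposite sign, so that no direction can be given for this gene.

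Of the feedback genes, Mdm2 (chr10:117688875-117710758) encodes the ubiquitin ligase that marks p53 for degradation. Its log2 signal was 9.56, 9.45, 9.96 and 9.94 in CP-Dox tumours, 9.52, 8.86, 8.91 and 8.38 in Dox tumours, and 8.86, 8.68, 7.96 and 8.02 in PBS tumours. CP-Dox and PBS tumours did not overlap, and Dox replicate 1 lay within the range of the CP-Dox tumours. Mdm2 rose by 1.35 ± 0.26 in CP-Dox against PBS (2.54-fold, interval 0.78 to 1.92, adjusted p = 0.0157 by limma). Its other probe set gave a smaller difference of 0.99 ± 0.21 (adjusted p = 0.0235 by limma over probe sets).

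Ccng1 (chr11:40748552-40755309) encodes cyclin G1, which brings a phosphatase to Mdm2 and so promotes the loss of p53. It had the largest log2 difference of the 10 genes between CP-Dox and PBS. Signals of Ccng1 on the log2 scale were 11.73, 11.13, 12.19 and 11.83 in CP-Dox tumours, 11.10, 10.89, 10.99 and 10.76 in Dox tumours, and 9.79, 9.65, 10.34 and 10.22 in PBS tumours. In this probe set the 3 groups did not overlap, in the order CP-Dox, Dox, PBS. In 1 of its other 2 probe sets CP-Dox replicate 2 (10.33) lay below Dox replicate 1 (10.38). Ccng1 rose by 1.72 ± 0.21 (3.30-fold, interval 1.26 to 2.19, adjusted p = 0.00295 by limma) in CP-Dox against PBS, and its 3 probe sets gave 1.72 to 1.93.

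Zmat3 (chr3:32334792-32365665) encodes a zinc finger protein that binds AU-rich messenger RNAs and affects their stability and splicing. In log2 signal, Zmat3 reached 9.22, 10.02, 9.66 and 9.31 in CP-Dox tumours, 9.34, 9.71, 9.10 and 9.02 in Dox tumours, and 8.52, 8.22, 8.29 and 7.93 in PBS tumours. Every CP-Dox and every Dox tumour lay above every PBS tumour, and the CP-Dox and Dox tumours were intermixed. Zmat3 rose by 1.31 ± 0.20 in CP-Dox against PBS (2.48-fold, interval 0.87 to 1.75, adjusted p = 0.00562 by limma).

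Phlda3, Sesn1 and Sesn2 hold back growth signalling. Phlda3 competes with the kinase Akt for membrane lipids, and the sestrins restrain the growth kinase mTORC1, with Sesn2 also acting as a leucine sensor. Phlda3 had log2 signals of 11.02, 10.17, 11.24 and 10.89 in CP-Dox tumours, 10.51, 9.98, 10.14 and 10.35 in Dox tumours, and 9.70, 9.68, 9.63 and 9.88 in PBS tumours. Phlda3 rose by 1.11 ± 0.20 (2.15-fold, adjusted p = 0.0109 by limma) in CP-Dox against PBS. Both drug groups lay wholly above the tight PBS group, with CP-Dox replicate 2 the lowest of its group.

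The log2 signal of Sesn2 was 8.40, 8.13, 8.54 and 8.36 in CP-Dox tumours, 8.26, 8.12, 8.08 and 7.86 in Dox tumours, and 7.90, 7.78, 7.40 and 7.18 in PBS tumours. Sesn2 had the smallest rise to pass, 0.80 ± 0.16 (1.74-fold, adjusted p = 0.0179 by limma), and its other probe set gave 0.77 ± 0.16. As in both probe sets of Mdm2, PBS replicates 3 and 4 were the low pair. Sesn1 had log2 signals of 9.16, 8.24, 9.86 and 8.65 in CP-Dox tumours, 8.87, 8.70, 8.53 and 7.81 in Dox tumours, and 8.23, 7.49, 8.45 and 8.49 in PBS tumours. Sesn1 differed between CP-Dox and PBS by 0.81 ± 0.35 and did not pass (adjusted p = 0.191 by limma), with CP-Dox replicate 2 within the PBS range. The other probe sets of Sesn1 gave smaller differences, 0.52 ± 0.26 and 0.64 ± 0.34. The standard error was larger for each probe set of Sesn1 than for those of Sesn2.

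The number of calls depended on single tumours. It was 4 without CP-Dox replicate 3, when Mdm2 (adjusted p = 0.0569) and Sesn2 (adjusted p = 0.0641, limma) no longer passed, and 7 without CP-Dox replicate 2, when Sesn1 passed too. It was 5, with Sesn2 not passing, without CP-Dox replicate 1 or PBS replicate 3. Keratinocyte markers (12 of 14 measured) stood 2.56 and 3.98 above the PBS mean in CP-Dox replicates 1 and 3, between -0.16 and 0.04 in the other CP-Dox tumours, 0.03 to 0.07 in Dox tumours and -0.13 to 0.12 in PBS tumours. With both skin-rich tumours left out, 0 of the 10 genes passed, with 2 genes of 12393 called in all. The log2 differences were then 1.37 for Cdkn1a, 1.31 for Mdm2, 1.48 for Ccng1, 1.43 for Zmat3, 0.81 for Phlda3 and 0.68 for Sesn2. With the keratinocyte mean as a covariate, Ccng1 and Zmat3 still passed, at 1.47 and 1.37, while the other 4 had adjusted p of 0.0888 to 0.132 by limma, and Sesn1 stood at 0.26. Mast cell markers also moved with the treatment, as 9 of 9 rose, with list means of 1.24 to 1.95 in CP-Dox, -0.26 to 1.21 in Dox and -0.49 to 0.30 in PBS tumours. Of 10 endothelial markers 3 rose, Pecam1, Emcn and Plvap, where 2.35% of all genes did. List means of the 10 markers were 0.44 to 0.64 in CP-Dox, -0.02 to 0.28 in Dox and -0.26 to 0.12 in PBS tumours. The part of mast cells and endothelium in the results was not tested. With the muscle mean as a covariate the 6 genes rose by 0.84 to 1.65.

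Dox was set against PBS to ask what the free drug did to the same genes at the same time. Zmat3 and Ccng1 showed the greatest differences, Cdkn1a, Mdm2, Phlda3 and Sesn2 intermediate ones, and none passed the test. Of the 10 genes, 0 rose and 0 fell by limma, as of all genes (0% called), with 5 of the 10 and 558 of 12393 genes at an unadjusted p under 0.05. The median log2 difference of the 10 genes was 0.52, and that of all genes 0.00. CP-Dox and Dox were compared with the same PBS tumours, so that their differences from PBS are not independent.

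Zmat3 differed by 1.05 ± 0.20 between Dox and PBS (interval 0.61 to 1.49, unadjusted p = 2.34e-04, limma), the third lowest p of all 12393 genes, yet its adjusted p was 0.967. Ccng1 differed by 0.94 ± 0.21 (unadjusted p = 9.57e-04, limma, place 8 of all genes). Phlda3 differed by 0.52 ± 0.20. In these 3 genes every Dox tumour was above every PBS tumour, as was the case for 1.71% of all genes. Cdkn1a differed by 0.75 ± 0.27, Mdm2 by 0.54 ± 0.26, Sesn2 by 0.52 ± 0.16 and Sesn1 by 0.31 ± 0.35, with 3 of 4 Dox tumours above all PBS tumours in each. Btg2 at 0.00 ± 0.44 and Plk2 at -0.05 ± 0.24 showed no direction, and Gadd45a was lower by -0.46 ± 0.32, not beyond the spread.

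**Figure D2:**
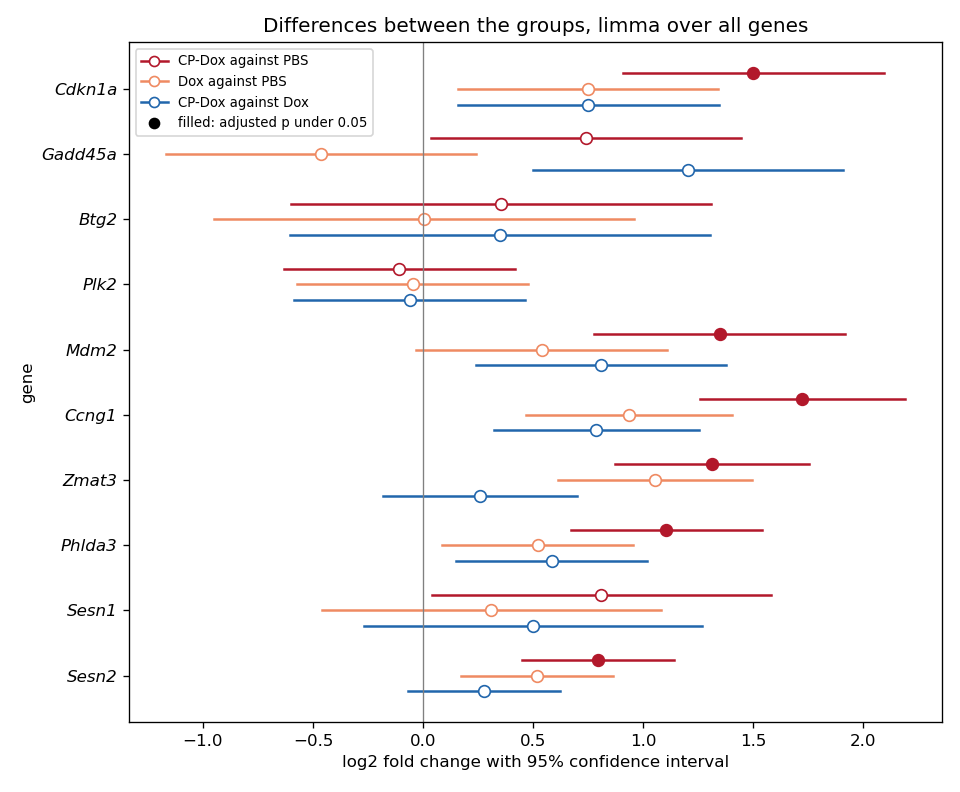
Log2 fold change (x axis) of the 10 genes (y axis) with 95% confidence intervals from limma, for each drug form against PBS and for the bound against the free drug; filled points passed at an adjusted p under 0.05. Filled points are seen for 6 genes in CP-Dox against PBS and for none in the other comparisons, and the difference of Zmat3 between Dox and PBS (1.05) is close to that between CP-Dox and PBS (1.31).

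The comparison of CP-Dox with Dox asked whether the carrier-bound and the free drug differed. None of the 10 genes passed, where 0.0565% of all genes rose and 0.169% fell, and the same held over probe sets, where 0.054% of all rose. At an unadjusted p under 0.05 there were 5 of the 10 genes and 1991 of 12393, and the median log2 difference was 0.54 over the 10 genes and -0.03 over all genes. Every CP-Dox tumour was above every Dox tumour for Gadd45a, Ccng1 and Cdkn1a, as for 3.29% of all genes.

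Gadd45a had the largest difference between CP-Dox and Dox of the 10 genes, 1.20 ± 0.32 (interval 0.50 to 1.91, adjusted p = 0.135 by limma). Of the muscle markers, 15 of 16 had a positive difference, with a median of 2.13, and 0 passed by limma. With the muscle covariate the difference of Gadd45a was 0.88 ± 0.30 (adjusted p = 0.215 by limma). What part muscle had in this difference was not tested. Mdm2 differed by 0.81 ± 0.26, Ccng1 by 0.79 ± 0.21, Cdkn1a by 0.75 ± 0.27 and Phlda3 by 0.59 ± 0.20, with adjusted p of 0.136 to 0.225 by limma. The other probe set of Mdm2 gave 0.40 ± 0.21 with an unadjusted p of 0.0834 by limma, so that Mdm2 is among the 5 genes above by its brighter probe set only. Zmat3 differed by 0.26 ± 0.20, with an interval of -0.18 to 0.70, which leaves room both for no difference and for one of more than 1.5-fold. Sesn1 (0.50 ± 0.35), Sesn2 (0.28 ± 0.16), Btg2 (0.35 ± 0.44) and Plk2 (-0.06 ± 0.24) had intervals that included 0. Without CP-Dox replicate 2, Ccng1 (0.98, adjusted p = 0.0128) and Phlda3 (0.80, adjusted p = 0.0101, limma) passed.

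In group means, 8 of the 10 genes stood in the order CP-Dox, Dox, PBS, from high to low, as did 23.3% of all genes. Btg2 counts among them by a difference of 0.0026 between Dox and PBS, and its other probe set broke the order. Among the 6 genes that rose in CP-Dox tumours, the difference between Dox and PBS was 40% of that between CP-Dox and PBS for Mdm2, 47.1% for Phlda3, 49.9% for Cdkn1a, 54.3% for Ccng1, 65.1% for Sesn2 and 80.4% for Zmat3. The other probe sets gave 59.5% for Mdm2, 46.2% for Cdkn1a, 39.6% and 45.4% for Ccng1, and 58% for Sesn2, so that Zmat3, with a single probe set, was highest either way and the order of the others depended on the probe set. These shares have the PBS tumours in common above and below, and their errors were not estimated. Gadd45a broke the order, with means of 7.29 in CP-Dox, 6.09 in Dox and 6.55 in PBS tumours.

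**Figure D3:**
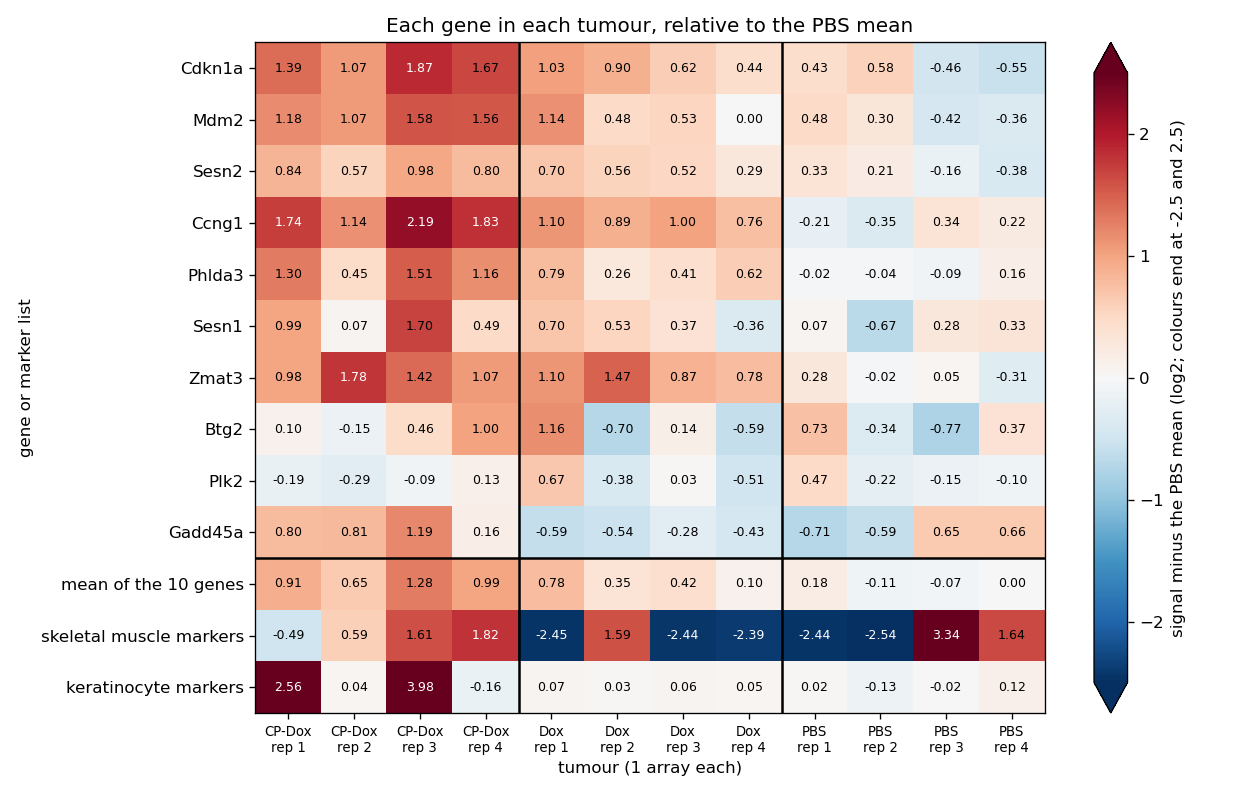
Log2 signal of each gene in each tumour relative to the PBS mean (colour), with tumours along the x axis ordered CP-Dox, Dox, PBS. Also shown are the mean of these genes and the means of marker lists for skeletal muscle and keratinocytes. The CP-Dox tumours are high for most genes, Dox replicate 1 stands out in its group, and keratinocyte markers are high in CP-Dox replicates 1 and 3 alone.

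Tumours of a group differed in the mean of the set, although the genes did not all move together. The mean of the 10 genes relative to PBS was 0.91, 0.65, 1.28 and 0.99 in CP-Dox tumours, 0.78, 0.35, 0.42 and 0.10 in Dox tumours, and 0.18, -0.11, -0.07 and 0.00 in PBS tumours. In this mean, only Dox replicate 1 reached the range of the CP-Dox tumours. Btg2 and Plk2, which showed no direction, enter it at 1.16 and 0.67 in Dox replicate 1, against -0.15 and -0.29 in CP-Dox replicate 2. Mdm2, Phlda3, Sesn1 and Sesn2 were also higher in Dox replicate 1 than in CP-Dox replicate 2. Cdkn1a, Ccng1, Zmat3 and Gadd45a were lower. Dox replicate 1 was the highest Dox tumour in 8 of the 10 genes, while Dox replicate 4 was the lowest in 7. Of the CP-Dox tumours, replicate 3 was the highest in 7 genes and replicate 2 the lowest in 8, but replicate 2 had the highest Zmat3. After subtraction of the group means, Cdkn1a and Sesn2 went together at r = 0.933, Cdkn1a and Mdm2 at 0.881, Ccng1 and Sesn1 at 0.843, and Btg2 and Plk2 at 0.91 over the 12 arrays. Gadd45a ran opposite to Cdkn1a, at r = -0.708, and Zmat3 opposite to Phlda3, at -0.597. Ccng1 did not go with Cdkn1a (r = -0.04), Mdm2 (0.05) or Sesn2 (0.003). These correlations describe 12 tumours that also shared differences in tissue content, and carry no test. The pooled SD within groups was 0.24 for Sesn2, the least variable, and 0.69 for Btg2, the most variable, against a median of 0.19 over all genes.

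Genes that followed the 10 genes most closely over the 12 arrays, by Pearson correlation with their scaled mean, were Slc19a2 (r = 0.973), Thnsl2 (0.963), Hoxd9 (0.951), Mylip (0.95), Foxo3 (0.949) and Trp53inp1 (0.949). Slc19a2, a thiamine transporter gene, averaged 8.83 in CP-Dox, 8.51 in Dox and 8.14 in PBS tumours. Trp53inp1, itself a p53 target, averaged 9.60, 8.23 and 7.09 in the same order of groups. Within the set, Mdm2 followed the mean of the other 9 most closely (r = 0.925), and Gadd45a (0.261) and Plk2 (0.18) the least.

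Other genes were read from lists of p53 targets, p53 regulators, relatives of the 10 genes, and cell cycle genes. Of 11 measured p53 targets of cell death, 3 rose and 0 fell in CP-Dox against PBS. Over all genes 2.35% rose and 3.23% fell, which is the background for each list count below in that comparison. Trp53inp1, an autophagy and death regulator, rose by 2.51 ± 0.35 and Pmaip1, the BH3-only protein Noxa, by 1.83 ± 0.24. The exonuclease gene Aen rose by 0.55 ± 0.10, and Ei24 at 0.53 did not pass (adjusted p = 0.0643 by limma). The median of this list was 0.54.

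Of 23 measured targets in metabolism, repair and secretion, 6 rose and 0 fell, with a median of 0.36. Ephx1, the microsomal epoxide hydrolase, rose by 3.07 ± 0.38, the heparan sulfatase Sulf2 by 1.43 ± 0.21, adenylate kinase Ak1 by 1.13 ± 0.16 and the excision repair nuclease Ercc5 by 0.88 ± 0.15. Of the 14 measured regulators of p53, 0 passed by limma, with a median of 0.00. The lowest p there belonged to the checkpoint kinases Chek1 at -0.77 (adjusted p = 0.0684) and Chek2 at -0.43 (adjusted p = 0.128), while Rchy1 stood at 0.26 and Prkdc at 0.42. Mdm4, the Mdm2 relative that binds and blocks p53, was at 0.18 ± 0.16 (adjusted p = 0.523 by limma), against 1.35 for Mdm2. Trp53 itself was not analysed here, since no probe set named it alone.

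Of the 15 measured relatives of the 10 genes, 1 passed: Sesn3, the sestrin that FoxO factors control, rose by 0.55 ± 0.11 (adjusted p = 0.0164 by limma). Plk1 at -0.76, Gadd45b at 0.47 and the CDK inhibitor gene Cdkn1b at -0.26 did not. The median of the relatives was 0.01.

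**Figure D4:**
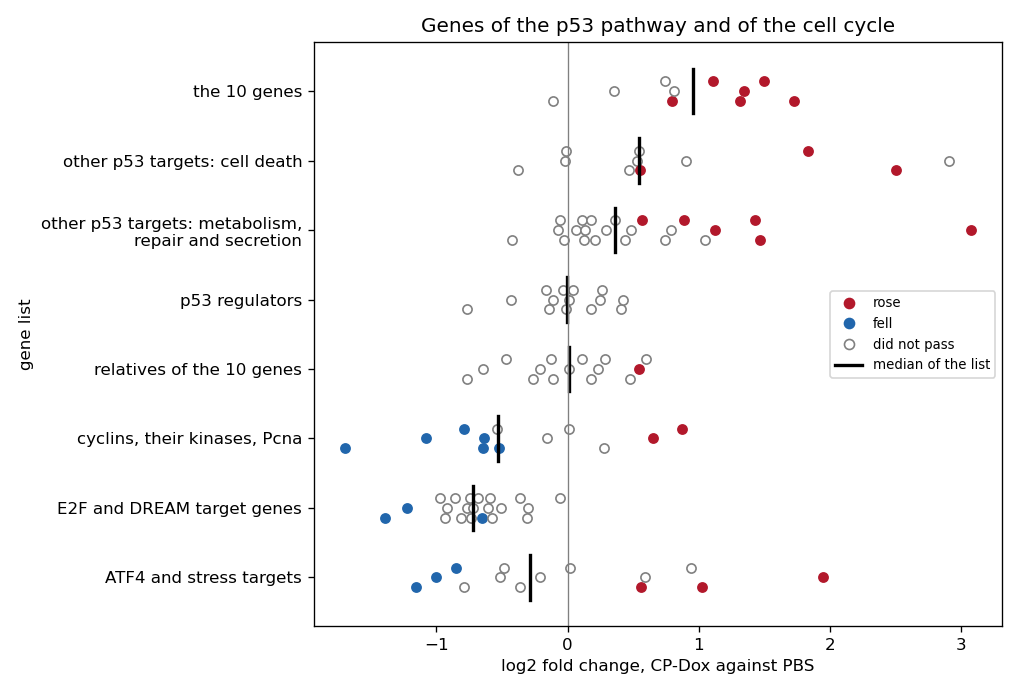
Log2 fold change of CP-Dox against PBS (x axis) for each measured gene of the 10 and of 7 lists (y axis); points are genes, filled where they passed, and black bars are list medians. The p53 targets lie mostly right of 0 and the E2F and DREAM target genes all left of it, while the regulators of p53 centre on 0.00.

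Of cyclins, their kinases and Pcna, 12 genes were measured in CP-Dox against PBS, of which 2 rose and 6 fell, with a median of -0.53. Cdk4, the kinase of early G1, fell by 0.64 ± 0.08, the S-phase cyclin genes Ccne2 by 1.69 ± 0.33 and Ccna2 by 1.08, and Ccne1 by 0.79 ± 0.14. The D-type cyclin gene Ccnd2 rose by 0.65 ± 0.14 and the kinase gene Cdk6 by 0.87 ± 0.22. Targets of E2F and of the DREAM repressor complex, which p21 can help to keep silent, had negative differences in 21 of 21 genes. Of these, 3 fell. The transcription factor genes Mybl2 and E2f1 fell by 1.22 ± 0.20 and 0.65, the thymidine kinase gene Tk1 by 1.39, and Mcm2 at -0.68 did not pass (adjusted p = 0.0572 by limma). Relative to PBS, this list averaged -1.62 in replicate 2 of the CP-Dox group and -0.46 to -0.32 in the others of that group. The CP-Dox tumour lowest of its group in most of the 10 genes, Cdkn1a (10.82) among them, was thus also lowest in these genes. What part p21 had in these differences was not tested.

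Because Sesn2 is also induced by the stress factor ATF4, a list of 14 genes was read beside it, made of Atf4 itself and stress targets. In CP-Dox against PBS 3 rose and 3 fell, with a median of -0.29. The serine synthesis genes Phgdh and Psat1 fell by 1.15 ± 0.09 and 0.999, and the pseudokinase gene Trib3 by 0.85. Those that rose were Vldlr, a lipoprotein receptor gene, by 1.95 ± 0.26, Ddit4 by 1.03 ± 0.26 and Ddit3 by 0.56 ± 0.14. In Dox against PBS, 0 genes passed in each of these 7 lists, with medians of 0.12 for both lists of p53 targets and -0.25 for the E2F and DREAM targets. In CP-Dox against Dox, Pmaip1 rose by 1.86 ± 0.24 (adjusted p = 0.0237 by limma), Ak1 rose by 0.94 ± 0.16 (adjusted p = 0.0499 by limma), and Phgdh fell by 0.92 ± 0.09.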

How the data were processed

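The authors deposited log2 signals made with RMA from 12 Affymetrix arrays, and the submitters' processing notes also name Partek; no versions or step order were recorded in the sources used here. The deposited log2 values were used as they stand. Of 22690 probe sets, 64 controls, 691 with several gene symbols and 1555 with none were left out, and a gene was read from its probe set with the highest mean. A model with a mean per group was fitted over all genes and 12 arrays in R 4.3.3 by lmFit and eBayes of limma 3.58.1, two-sided, and adjusted by Benjamini and Hochberg; no filter on signal or fold was used. The fit was tested on simulated data. The genes and lists were chosen with earlier results of these data known. The named genes are the 10 genes, up to 4 of each list with the lowest p in CP-Dox against PBS, the 6 most correlated genes, and Trp53 and Mdm4; other list members that are named were picked after their values were seen. Muscle and keratinocyte covariates were added after seeing the data. Sequences are from RefSeq. Plots were made in Python 3.11.15 using matplotlib 3.10.9. Neither scan dates nor batches are given in the sources used here.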

Additional observations from a re-analysis of the deposited data

How the results depend on the processing

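In CP-Dox against PBS, 6 of the 10 genes rose, and 6 did so after another quantile normalization, median centring, removal of the dimmest 40% of genes, other choices of probe set, a variance trend, a 1.5-fold minimum and a muscle covariate, the last chosen after seeing the data. The count was 4 with only the 2 compared groups in the fit (Cdkn1a 0.0509 and Sesn2 0.0649, adjusted p by limma), 7 with array weights, 2 at an adjusted p under 0.01, 2 with a keratinocyte covariate, and 0 with CP-Dox replicates 1 and 3 left out together; leaving out 1 tumour gave 4 to 7. In Dox against PBS it was 0 in every setting run. In CP-Dox against Dox it was 0, but 4 with array weights, and 0 to 2 with 1 tumour left out. With a replicate block it was 6, 0 and 0; same-numbered tumours correlated at -0.311 to 0.505, so that the numbers are not shown to pair them. Signs turned only in differences that had not passed. For Btg2 in Dox against PBS, quantile normalization gave -3.18e-04, the muscle covariate -0.15, and leaving out 1 tumour -0.38 to 0.25. Plk2 in Dox against PBS was 0.0493 with array weights and -0.29 to 0.11 with 1 tumour left out. Plk2 in CP-Dox against PBS ran from -0.19 to 0.0486, and in CP-Dox against Dox from -0.22 to 0.18, with 0.0612 under the muscle covariate. Sesn1 in CP-Dox against Dox was -0.0326 with CP-Dox replicates 1 and 3 left out and -0.0273 with the keratinocyte covariate. Gadd45a was below the filter on dim genes and has no value there. The settings moved the median of all genes by at most 0.06, and the causes of these changes were not tested.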
